A study of Homo sapiens and Mus musculus with 13 samples.

Results

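RNA:DNA hybrids recovered from human NT2 cells after RNase A were set directly against those recovered after RNase H. NT2 is an established embryonal carcinoma line of testicular origin with pluripotent properties. Both samples were DRIP-seq libraries of the same line, cut with the same enzymes (HindIII, EcoRI, BsrGI, XbaI and SspI), and they differed in the labels only by the RNase named in the title. The labels name no RNase amount, no timing and no number of cultures. They are 2 of the 13 samples of the series, and all of their peaks were used: 59825 for RNase A and 8998 for RNase H, out of 454693 peaks in the 9 lists of the series. Each RNase is represented by 1 library and 1 peak list, so no difference below has a replicate check and no p-value is given.

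An R-loop forms when RNA pairs with its DNA template and leaves the other DNA strand unpaired. DRIP-seq recovers such structures with an antibody against RNA:DNA hybrids and sequences the DNA of the recovered restriction fragments, so a peak can be wider than the hybrid in it. RNase H cuts RNA that is paired with DNA, and it is the usual negative control of the assay. RNase A cuts unpaired RNA and leaves hybrids in place when the salt concentration is high, whereas at low salt it can cut them too. The comparison therefore addresses how far the regions called after RNase A are also called in a library treated with RNase H.

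The lists hold positions without read counts, heights or scores, and the depth of each library is unknown. A region missing from a list was not called there, which is not the same as an absence of hybrids, and a difference in depth cannot be told apart from an effect of RNase H. A peak was counted as touched when at least 1 bp of a peak in the other list overlapped it. Base pairs of the RNase A list outside all RNase H peaks are called lost. Intervals are exact Clopper-Pearson 95% intervals that cover counting error only, and neighbouring peaks are not independent. Because long peaks are touched more easily by accident, the RNase A peaks were also moved as they are, with unchanged lengths, by 20, 50, 100 and 200 kb to either side, and the 8 resulting shares are given as a mean with their range. Positions are on hg19 and are counted from 1. No gene annotation or sequence of that build was used, so regions are given without gene names.

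The RNase A list was much larger than the RNase H list, and its peaks were longer. It covered 149.8 Mb, against 15.4 Mb for RNase H, a ratio of 9.74. The median peak length was 1727 bp after RNase A and 826.5 bp after RNase H. The ratio of peak numbers grew with length: RNase A had 3.48 times as many peaks below 1 kb as RNase H (17432 against 5009), 9.37 times as many at 1 to 2 kb (16359 against 1745), 11.4 times as many at 2 to 5 kb (18998 against 1660) and 12.0 times as many at 5 kb or more (7036 against 584). Peaks below 1 kb made up 29.1% of the RNase A list and 55.7% of the RNase H list.

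Most RNase A peaks and base pairs lay outside the RNase H peaks. Of the 59825 RNase A peaks, 5182, or 8.66% (8.44 to 8.89%), were touched by an RNase H peak, and the other 54643, or 91.3%, were not. Moved RNase A peaks were touched in 3.81% of cases (3.50 to 4.14% over the 8 shifts), so the share at the true positions was 2.27 times that of these moved peaks. With shifts of 1, 2 and 5 Mb in place of these, the moved share was 2.36% and the ratio 3.67. In base pairs, 138.4 Mb, or 92.4% of the RNase A list, were lost and 11.4 Mb were covered. Much of this loss was fixed by the sizes of the lists. The RNase H list held 15.4 Mb and the RNase A list 149.8 Mb, so most base pairs would be lost wherever the RNase H peaks lay. The covered part was 7.61% at the true positions and 2.31% (1.99 to 2.81%) for moved peaks. Of the lost base pairs, 91.0%, or 126.0 Mb, belonged to peaks with no RNase H peak at all, and 12.5 Mb were the uncovered parts of touched peaks. The median touched RNase A peak measured 3318.5 bp, against 1651 bp among the others.

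The share of RNase A peaks touched by RNase H rose with peak length, and the share for moved peaks rose with it. Below 1 kb, 881 of 17432 RNase A peaks were touched, or 5.05% (4.73 to 5.39%), against 1.75% (1.41 to 1.95%) for the same peaks after moving. At 1 to 2 kb, 817 of 16359 were touched, or 4.99% (4.67 to 5.34%), against 2.47% (2.31 to 2.62%) after moving. These first 2 bins did not differ beyond their intervals.

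At 2 to 5 kb the share was 9.45% (9.04 to 9.88%; 1796 of 18998), against 4.23% (3.76 to 4.49%) for moved peaks. At 5 kb or more it was 24.0% (22.997 to 25.01%; 1688 of 7036), against 10.9% (9.77 to 12.4%) for moved peaks. The ratio of the share at the true positions to the moved share was 2.89 below 1 kb, 2.02 at 1 to 2 kb, 2.23 at 2 to 5 kb and 2.21 at 5 kb or more. Observed shares lay above the highest of the 8 moved shares in all 4 bins.

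In base pairs, the ratio of observed to moved cover was highest in the longest bin. RNase H peaks covered 3.79% of the base pairs of RNase A peaks below 1 kb, 3.36% at 1 to 2 kb, 5.52% at 2 to 5 kb and 12.3% at 5 kb or more, against 1.30%, 1.49%, 1.86% and 3.32% after moving. The lost part was therefore 96.2%, 96.6%, 94.5% and 87.7% of the base pairs from the shortest to the longest bin. In absolute terms the bins lost 10.002, 23.2, 55.8 and 49.4 Mb. The observed cover was 3.71 times the moved cover at 5 kb or more and 2.26 times at 1 to 2 kb, or 7.46 and 3.54 times with shifts of 1, 2 and 5 Mb.

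**Figure D1:**
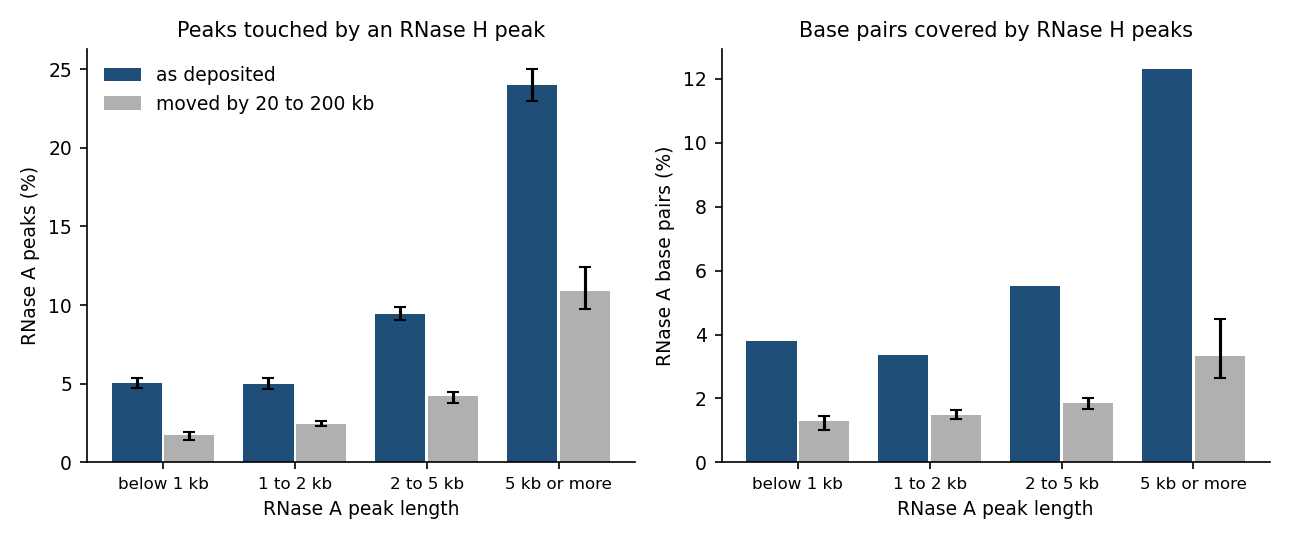
RNase A peaks by length, with the percentage of peaks touched by an RNase H peak on the left and the percentage of base pairs covered by RNase H peaks on the right. Dark bars are the peaks as deposited, with 95% Clopper-Pearson intervals on the left, and grey bars are the same peaks moved by 20 to 200 kb, with the mean and range of 8 shifts. The touched share was 5.05% below 1 kb and 24.0% at 5 kb or more, and the moved share was 1.75% and 10.9%.

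The moved shares depend on the neighbourhood of RNase A peaks, because some moved peaks land on another RNase A peak. When such positions were left out, the moved share fell to 0.704% (0.622 to 0.771%), and it was 0.394% below 1 kb, 0.538% at 1 to 2 kb, 0.908% at 2 to 5 kb and 2.02% at 5 kb or more. Against these positions the observed share was 12.3 times as high over all peaks, and between 9.28 and 12.8 times as high in the 4 bins. A lower moved share was partly built into this choice. Of the base pairs of the RNase H list, 74.1% lay inside RNase A peaks, where such positions could not meet them. The height of these ratios is therefore not a separate result. With shifts of 1, 2 and 5 Mb, the ratios in the bins were 3.05 to 4.79. The positions away from RNase A peaks were 71.2% of all moved positions, 82.9% of those of peaks below 1 kb and 43.4% of those of peaks of 5 kb or more. Over all peaks they were thus not matched in length.

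The covered part of a touched RNase A peak was smaller in longer peaks. Below 1 kb, the median touched peak was covered over 99.6% of its length, and 530 of 881 (60.2%) were covered over at least 90%. At 5 kb or more, the median was 34.9%, 253 of 1688 (14.99%) were covered over at least 90%, and 357 (21.1%) were covered over less than 10%. The bins between had medians of 77.6% at 1 to 2 kb and 53.1% at 2 to 5 kb. Over the whole RNase A list, 1555 peaks, or 2.60%, had at least 90% of their length in RNase H peaks, and 2870, or 4.80%, had at least 50%; moved peaks reached these limits in 0.808% and 1.49% of cases. A peak shorter than the RNase H peak that meets it is easily covered in full, so these fractions also depend on the lengths in the 2 lists.

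**Figure D2:**
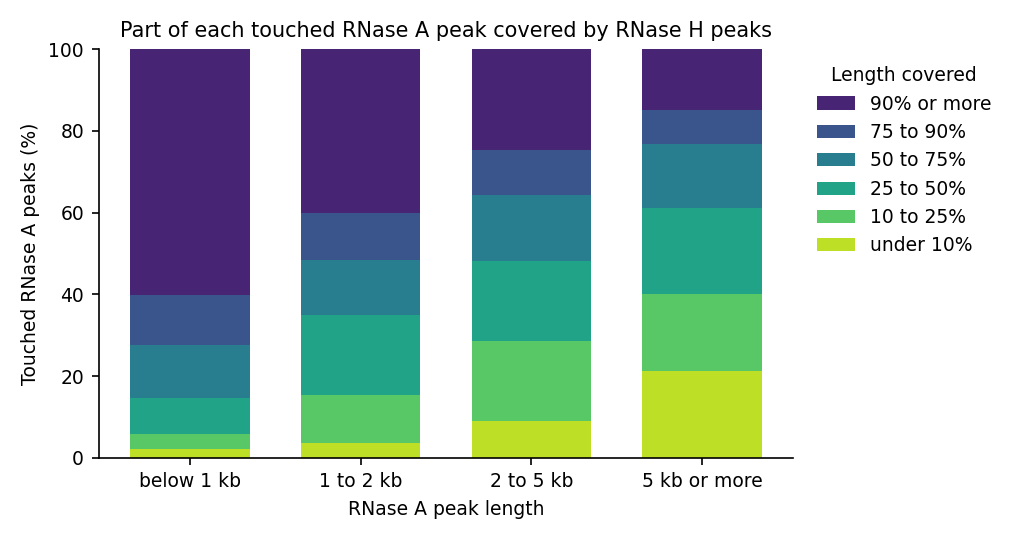
Stacked bars give, for RNase A peaks touched by an RNase H peak, the percentage of peaks in each class of length covered, by RNase A peak length. At least 90% of the length was covered in 60.2% of touched peaks below 1 kb and in 14.99% of those of 5 kb or more.

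Where 1 RNase A peak met 1 RNase H peak, the RNase A peak was usually the longer of the pair. There were 3261 such pairs, with a median length of 3002 bp for the RNase A peak and 1121 bp for the RNase H peak, and the RNase A peak was longer in 74.9% of them. For RNase A peaks of 5 kb or more the median ratio of RNase A to RNase H length within a pair was 4.43. The RNase H peak lay wholly inside the RNase A peak in 742 of these 880 pairs (84.3%). For RNase A peaks below 1 kb the order was the other way round, with a median ratio of 0.835, and the RNase A peak was longer in 37.2% of 589 pairs. Both edges lay within 50 bp of each other in 89 of these short pairs (15.1%), against 10 of the 880 pairs (1.14%) at 5 kb or more. The pairs were binned by RNase A length, which also enters the ratio. The change of the ratio between bins, and of the share of RNase H peaks lying inside, therefore follows in part from the binning. Pairs made by moved peaks were not examined.

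Other touching peaks were split in one list or the other. A single RNase H peak was found in 4193 RNase A peaks and several in 989, up to 7 in 1 RNase A peak. In the other direction, 470 RNase H peaks spanned more than 1 RNase A peak. The most fragmented case was an RNase H peak of 50.4 kb at chrY:13698160-13748536, which touched 28 RNase A peaks. It was followed by one of 48.7 kb at chr10:39081799-39130471, which touched 20.

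Seen from the RNase H list, most peaks touched an RNase A peak. Of 8998 RNase H peaks, 5806, or 64.5% (63.5 to 65.5%), did so, and the other 3192 did not, of which 2450 were below 1 kb. Of the base pairs of the RNase H list, 74.1% lay inside an RNase A peak. RNase H peaks moved by the same distances touched an RNase A peak in 25.1% of cases (23.2 to 27.2%). The share was 51.1% (49.7 to 52.5%) for RNase H peaks below 1 kb, 72.7% (70.6 to 74.8%) at 1 to 2 kb, 84.9% (83.1 to 86.6%) at 2 to 5 kb and 97.4% (95.8 to 98.6%) at 5 kb or more. The moved shares were 18.9%, 26.7%, 33.0% and 50.8% in the same bins. Only 15 of the 584 RNase H peaks of 5 kb or more had no RNase A peak. The RNase H base pairs outside the RNase A list came to 3.98 Mb.

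Most RNase A base pairs were lost on every autosome, which the smaller size of the RNase H list alone would give. Over the 22 autosomes, the lost part ran from 85.9% of base pairs on chromosome 21 to 97.1% on chromosome 22, with a median of 92.5%. These 2 autosomes also had the lowest and highest ratio of RNase A to RNase H base pairs, 5.66 and 25.8, which limits the part that could be covered. The share of touched RNase A peaks ran from 4.15% on chromosome 13 to 13.3% on chromosome 21, with a median of 7.74%. The next highest shares were 12.8% on chromosome 19 (509 of 3982) and 11.6% on chromosome 16 (393 of 3401), and the next lowest were 4.22% on chromosome 14 (59 of 1397) and 4.46% on chromosome 5 (86 of 1927). The interval of chromosome 21 (11.2 to 15.6%; 127 of 954) overlapped that of chromosome 19 (11.8 to 13.9%), and the interval of chromosome 13 (2.82 to 5.87%; 30 of 723) overlapped those of chromosomes 14 and 5. On all 22 autosomes the share lay above the highest of the 8 moved shares.

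Covered length showed the extremes more plainly. The RNase A list covered 5.32 Mb of chromosome 22, against 0.206 Mb for RNase H, a ratio of 25.8. On chromosome 21 it covered 2.39 Mb, against 0.422 Mb for RNase H, a ratio of 5.66. On chromosome 14 the ratio was 17.9, and on chromosome 18 it was 6.15. The largest amounts lost were 16.8 Mb on chromosome 1 and 12.4 Mb on chromosome 19, the autosomes with the most RNase A base pairs (18.4 and 13.8 Mb).

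Chromosome 19 had a high touched share, but its moved share was high as well. It had the highest part of long RNase A peaks, 22.9% at 5 kb or more, and its moved share was 9.87% (9.12 to 10.5%), so the observed 12.8% was only 1.29 times as high, the lowest ratio of the 22. It was also lowest with shifts of 1, 2 and 5 Mb, at 1.64, but not at positions away from other RNase A peaks, where chromosome 16 was lowest at 8.604 and chromosome 19 had 9.17. When every autosome was given the same mix of length bins, chromosome 19 came to 9.37%, while chromosome 21 stayed highest at 13.5% and chromosome 22 was lowest at 4.37%. The rank of chromosome 21 rested on the 57 peaks within 2 Mb of its longest stretch without a peak in any human list, of which 37 were touched. When the peaks beside such a stretch were left out on every autosome, its share was 10.03% (8.15 to 12.2%; 90 of 897), and chromosome 19 was highest at 12.8%, followed by chromosome 12 at 10.8%. This setting, and the other moved positions by autosome and by support in other lists, were chosen after the data were seen. For shifts of 20 to 200 kb, the ratio of observed to moved share was highest on chromosome 6, at 6.36 (5.01% against 0.788%). Chromosome 18 followed at 5.32 and chromosome 10 at 4.68. Chromosome 6 was also highest at positions away from other RNase A peaks, at 20.5. With shifts of 1, 2 and 5 Mb, chromosome 18 was highest at 22.01, and chromosome 10 (12.5) also lay above chromosome 6 (11.6). The autosome with the highest ratio therefore depended on the shift.

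**Figure D3:**
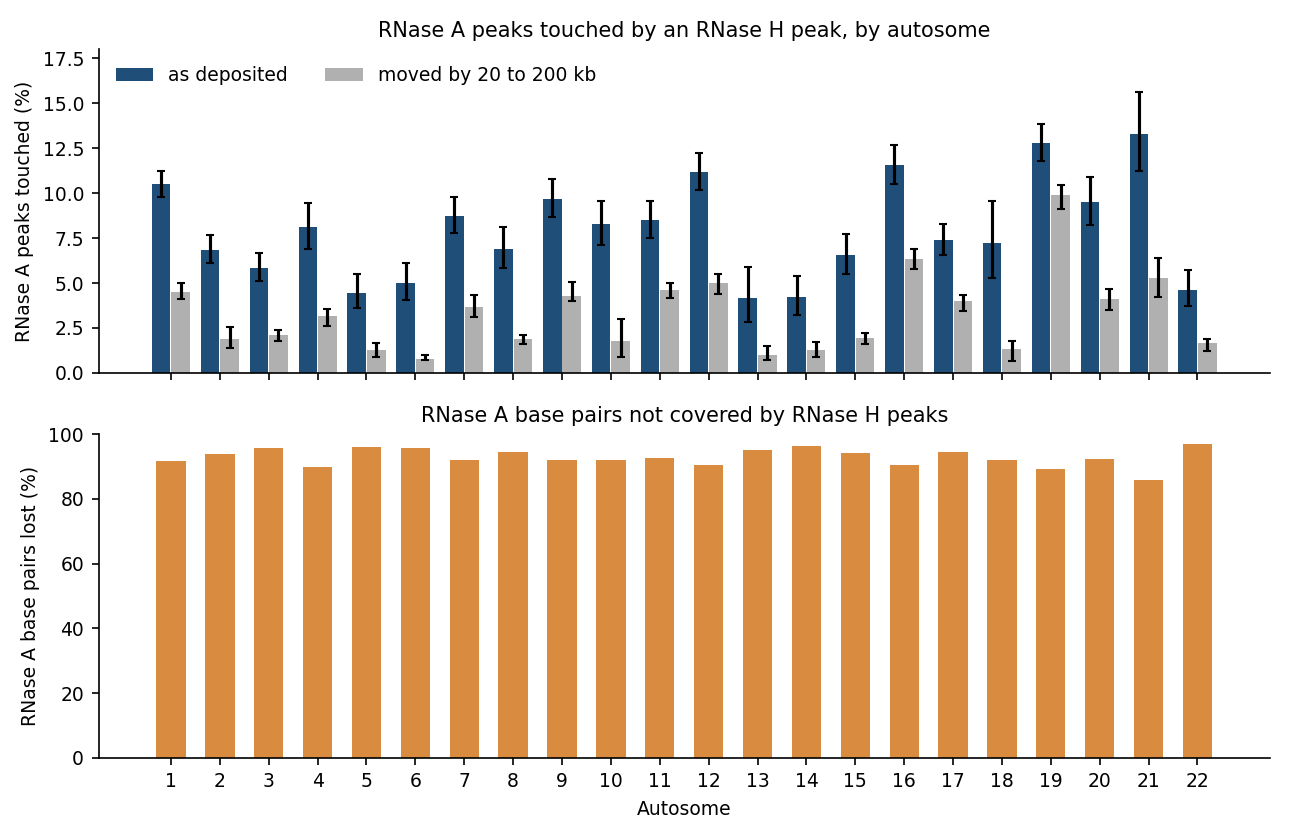
The upper panel gives the percentage of RNase A peaks touched by an RNase H peak on each autosome for the peaks as deposited (dark, with 95% Clopper-Pearson intervals) and moved by 20 to 200 kb (grey, mean and range of 8 shifts). The lower panel gives the percentage of RNase A base pairs outside RNase H peaks, which lay between 85.9% and 97.1%; the upper bars differ least on chromosome 19, in relative terms.

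RNase A peaks of 5 kb or more had the highest touched share of the 4 bins on all 22 autosomes, from 9% on chromosome 6 to 34.9% on chromosome 21. Below 1 kb the range was 1.45 to 9.29%, at 1 to 2 kb 2.48 to 6.82%, and at 2 to 5 kb 3.93 to 15.6%. Of the 88 combinations of autosome and bin, 84 had a share above the highest of the moved shares. Of the other 4, 3 were on chromosome 19: 4.15% below 1 kb (34 of 819; moved mean 4.36%), 3.36% at 1 to 2 kb (29 of 864; moved mean 6.25%) and 10.5% at 2 to 5 kb (146 of 1387; moved mean 9.54%). The last was chromosome 18 at 5 kb or more, where 6 of 33 peaks were touched. These values hold for shifts of 20 to 200 kb. At moved positions away from other RNase A peaks, the means on chromosome 19 were 0.496%, 1.12% and 1.78% in the same 3 bins. All were under the observed shares, but lower values are partly built into the choice of these positions. With shifts of 1, 2 and 5 Mb the means were 3.47%, 5.77% and 7.22%, so that only the bin of 1 to 2 kb stayed under its moved mean.

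The sex chromosomes differed in level. On chromosome X, 87 of 1528 RNase A peaks were touched, or 5.69%, against 1.32% (0.721 to 1.77%) after moving, and 94.5% of base pairs were lost. On chromosome Y, 132 of 211 were touched, or 62.6%, against 22.1% (10.8 to 42.8%) after moving, and 37.97% of base pairs were lost. The ratio of observed to moved share was 4.32 on chromosome X and 2.83 on chromosome Y for shifts of 20 to 200 kb. At moved positions away from other RNase A peaks the ratios were 10.9 and 8.94. With shifts of 1, 2 and 5 Mb the order was reversed. The moved shares were then 0.577% on chromosome X and 0.799% on chromosome Y, and the ratios were 9.87 and 78.3. The order of the 2 chromosomes therefore depended on the shift. Moved peaks that landed in a stretch without a peak in any human list were kept, although nothing can touch them there. How many did so on chromosome Y was not counted, so the height of the ratio of 78.3 is not a separate result. RNase A peaks covered 0.479 Mb of chromosome Y, against 0.400 Mb for RNase H, a ratio of 1.20. Without both sex chromosomes the touched share was 8.54%.

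Other human lists, which the comparison did not use, separated the touched from the untouched RNase A peaks. They were NT2 DRIP-seq with no RNase named (digest A, the same enzymes), NT2 DRIP-seq with other enzymes (BamHI, NcoI, ApaLI, NheI and PvuII; digest B), NT2 DRIPc-seq, which sequences the RNA strand of the hybrids, and DRIP-seq of K562, a leukaemia line. Of all RNase A peaks, 65.7% touched a digest A peak, 64.8% a digest B peak, 53.3% a DRIPc peak and 52.4% a K562 peak. Within length bins, RNase A peaks with an RNase H peak were found in these lists less often in 15 of 16 combinations of list and bin.

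Peaks of middle length showed the wider gaps. At 1 to 2 kb, 20.6% (17.8 to 23.5%) of the 817 touched RNase A peaks were found in DRIPc-seq, against 53.9% (53.1 to 54.7%) of the 15542 untouched ones. For digest B the shares were 28.9% with and 66.7% without an RNase H peak, and for digest A 37.6% and 67.6%. At 2 to 5 kb, 30.8% of touched and 65.0% of untouched peaks were found in DRIPc-seq. At 5 kb or more, 54.0% (51.6 to 56.4%) of touched and 78.1% (77.0 to 79.2%) of untouched peaks were found in DRIPc-seq, and 80.2% and 88.7% in digest A. The exception was K562 below 1 kb, where 43.5% (40.2 to 46.8%) of touched and 33.2% (32.5 to 33.9%) of untouched peaks were found. Within a bin the classes still differed in length, with medians of 7837.5 bp for touched and 6583 bp for untouched peaks at 5 kb or more, 3330.5 and 2920 bp at 2 to 5 kb, 1471 and 1453 bp at 1 to 2 kb, and 577 and 600 bp below 1 kb.

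**Figure D4:**
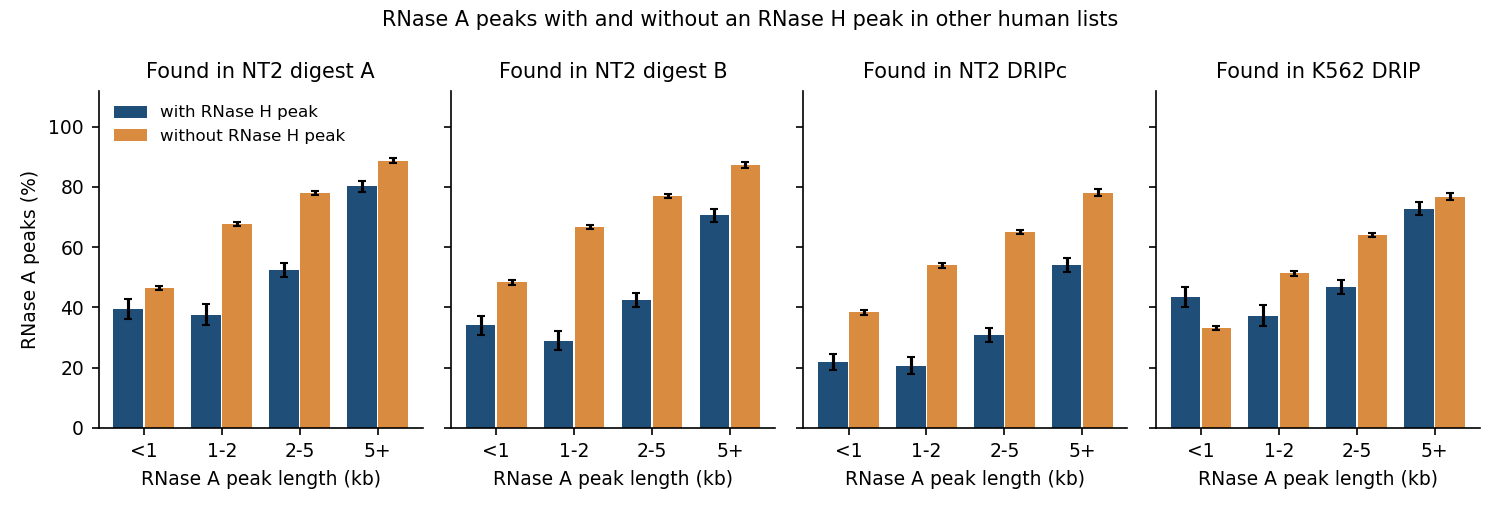
The percentage of RNase A peaks that touch a peak of another human list is given by RNase A peak length, for peaks with (dark, left) and without (orange, right) an RNase H peak, with 95% Clopper-Pearson intervals. Peaks with an RNase H peak were found less often in every NT2 list and bin; in K562 below 1 kb the order was the other way round, 43.5% against 33.2%.

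Turned round, RNase A peaks found in few other NT2 lists were touched by RNase H more often than those found in all of them. Of the 14262 RNase A peaks absent from the digest A, digest B and DRIPc lists alike, 14.1% (13.6 to 14.7%) were touched, against 6.20% (5.91 to 6.50%) of the 26054 found in all 3. These unsupported peaks were shorter, with a median of 1159 bp against 2408 bp. At 2 to 5 kb, 22.9% (21.5 to 24.3%) of the unsupported peaks were touched, against 4.36% (3.98 to 4.77%) of those in all 3 lists. At 1 to 2 kb the shares were 12.5% (11.4 to 13.5%) and 1.98% (1.66 to 2.34%). Below 1 kb they were closer, 7.39% (6.76 to 8.07%) and 3.81% (3.22 to 4.46%), and peaks found in 1 list, at 4.18% (3.51 to 4.93%), did not differ from those in all 3 beyond the intervals.

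The moved shares differed less between these classes. Below 1 kb they were 1.83% for unsupported peaks and 1.53% for those in all 3 lists, so the observed shares were 4.03 and 2.49 times as high. At 2 to 5 kb they were 4.47% for unsupported peaks and 3.72% for those in all 3 lists, so the observed shares were 5.13 and 1.17 times as high. At 1 to 2 kb, RNase A peaks found in all 3 lists were touched no more often than after moving (1.98% against 1.93 to 2.33% over the shifts), and those found in 2 lists were touched in 2.61% of cases, against 2.69 to 3.01% after moving. This near equality held for shifts of 20 to 200 kb only. At positions away from other RNase A peaks the moved means were 0.503% for peaks in all 3 lists and 0.529% for peaks in 2. Lower values are partly built into the choice of these positions. With shifts of 1, 2 and 5 Mb the moved means were 1.41% and 1.81%. All 4 means were under the observed shares. In peaks found in no other NT2 list, at the same length, the observed share was 12.5%, against moved means of 0.608% and 1.76%. At 5 kb or more, 40.4% (36.8 to 44.0%) of 738 unsupported peaks and 17.9% of 4887 found in all 3 lists were touched, against 9.76% and 10.5% after moving. The highest share in this bin was that of the 437 peaks found in 1 list (45.8%, 41.0 to 50.6%), but its interval overlapped that of the unsupported peaks. The lost part of base pairs was 86.5% in unsupported peaks and 94.5% in those found in all 3 lists.

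**Figure D5:**
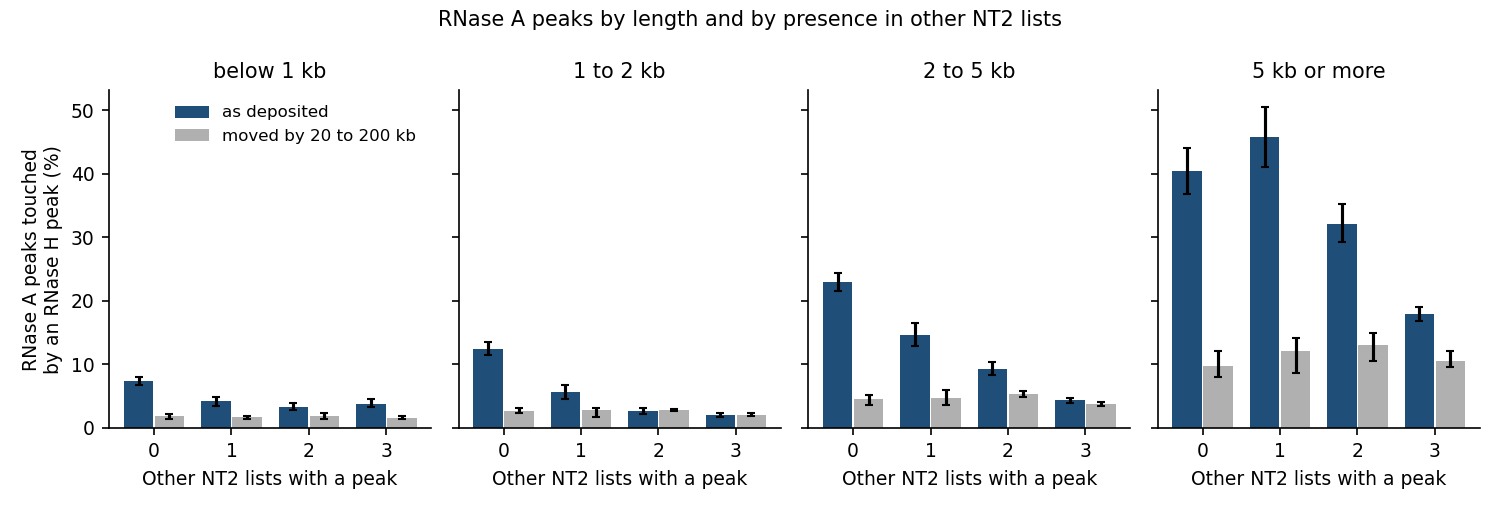
Each panel is a bin of RNase A peak length, and the horizontal axis counts in how many of 3 other NT2 lists (digest A, digest B, DRIPc) the peak was found. Dark bars give the percentage touched by an RNase H peak with 95% Clopper-Pearson intervals, and grey bars the same peaks moved by 20 to 200 kb (mean and range of 8 shifts). At 2 to 5 kb the touched share was 22.9% with no other list and 4.36% with all 3.

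The longest RNase A peaks without any RNase H peak were found in all 4 other human lists. They lay at chrX:114959135-115005859 (46.7 kb), at chr11:2398994-2430509 (31.5 kb), at chr8:145721328-145752384 (31.1 kb), and at chr11:67793394-67821134 (27.7 kb) and at chr11:781611-808906 (27.3 kb). Among the longest untouched RNase A peaks of each autosome, with lengths of 9.60 to 31.5 kb, 22 of 22 were found in digest A, 21 in digest B, 21 in DRIPc-seq and 19 in K562. No part of these peaks was called after RNase H. The longest touched RNase A peaks of each autosome gave similar counts, 20, 20, 19 and 20 in the same order. Of all untouched RNase A peaks of 5 kb or more, 88.7%, 87.3%, 78.1% and 76.8% were found in these lists.

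At the other extreme, some of the longest RNase A peaks were covered by RNase H peaks over nearly their whole length or all of it. They lay at chr4:49092650-49158628 (66.0 kb, 100% covered), at chrY:58861976-58917625 (55.6 kb, 99.7%), at chr16:46385771-46435967 (50.2 kb, 100%), at chr1:228737461-228784314 (46.9 kb, 100%) and at chr4:132642950-132686327 (43.4 kb, 99.9%). The other 4 human lists held peaks at each of these 5 regions. The region on chromosome 16 begins beside that chromosome's longest stretch without a peak in any human list, which ends at position 46385560. The first region on chromosome 4 also lay within 2 Mb of such a stretch, which begins at position 49660276. Whether the reads at these regions could also be placed elsewhere in the genome was not tested, so shared calls do not show hybrids at these positions.

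Other long RNase A peaks were covered in part. The RNase A peak at chr1:144159275-144224316 (65.0 kb) lost 62.6 kb and was covered over 3.80% of its length. The one at chr7:1496147-1532100 (36.0 kb) was covered over 3.17%. The one at chr9:139386166-139436768 (50.6 kb) lost 28.5 kb, and the one at chr12:6921868-6964779 (42.9 kb) lost 14.2 kb. Among the longest touched RNase A peaks of each autosome, the median cover was 43.8%, and 6 of 22 were covered over at least 90%.

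The longest RNase H peaks without an RNase A peak were much shorter than those regions. The first lay at chrX:30806907-30817902 (11.0 kb) and the second at chr1:4391700-4402386 (10.7 kb), and neither was found in any other human list. The third, at chr12:133024244-133033721 (9.48 kb), was found in K562 only.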

How the data were processed

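The authors deposited peak lists of DRIP-seq and DRIPc-seq libraries. The positions in them are a peak's start and end in base pairs, with no read counts, fold or p-value. Per the submitters' processing notes, BWA 0.6.1, TopHat2 2.0.5 and Bismark 0.7.7 were used, with no role stated, and hg19 was among the genome builds. The peak caller and threshold were not given in the sources used here. Human lists were analysed, and the 3 mouse lists were not used here.

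Samples were grouped by their titles. Overlaps and covered base pairs were computed with numpy 2.4.6 and pandas 2.3.3 in Python 3.11.15, intervals with scipy 1.17.1, and figures with matplotlib 3.10.9. Touched peaks were counted again by bedtools 2.31.1 with identical results, and the functions were tested on simulated lists. Moved peaks that left the span of the chromosome, from its start to its last peak in any human list, were dropped. Those that landed inside the span in a stretch without a peak in any human list were kept. Autosome shares with an equal mix of lengths used the bin shares of all autosomal RNase A peaks as weights.

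Named regions are the 5 longest RNase A peaks without an RNase H peak, the 5 longest with at least 90% covered, the longest touched and untouched RNase A peak of each autosome, and the 5 longest RNase H peaks without an RNase A peak, beside the 3 autosomes with the highest and the 3 with the lowest share and the 5 windows of 10 Mb with the highest share; other autosomes and partly covered regions were chosen after their values were seen. The gene lists and sequence features that had been planned were not analysed here. The comparison, its bins and its lists were chosen with earlier results of these data known.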

Additional observations from a re-analysis of the deposited data

How the results depend on the processing

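The touched share of RNase A peaks was 8.66% and moved with the rule for overlap: it was 7.71% when at least 10% of the RNase A peak had to be covered and 4.80% at 50%. It was 9.16% with the longest 50% of each list, 9.39% with peaks within 1 kb merged, and 5.09% for digest A peaks in place of RNase A peaks. Under settings chosen after seeing the data it was 7.42% on autosomes without peaks within 2 Mb of the longest gap or of an outermost peak, 8.40% without the 5 windows of 10 Mb with the highest share, and 7.51% for RNase A peaks that also touch digest A. The lost part of base pairs, 92.4%, was 92.1% with the longest 50%, 92.3% with merged peaks, 92.5% on autosomes and 95.2% for digest A. The share of RNase H peaks that touch an RNase A peak, 64.5%, was 58.4% and 33.8% at 10% and 50% cover, 67.5% with the longest 50%, 62.5% with merged peaks and 38.2% for digest A. The moved share, 3.81%, was 2.36% with shifts of 1, 2 and 5 Mb and 0.704% without positions on another RNase A peak. The bin of 5 kb or more had the highest share under all 6 alternatives computed by bin, at 9.32 to 24.1%; the longest quartile of RNase A peaks had 18.04%, and the shortest 5.14%. The cause of these movements was not tested. Depth is unknown and limits every share. Leaving out a replicate was not possible with 1 library for each RNase. No paired analysis was possible because each RNase has 1 sample and the labels give it no replicate number.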

Other observations

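RNase A peaks that overlapped the RNase H list were unevenly spread along the autosomes. The longest stretch of each autosome without a peak in any human list was found, which includes the start of chromosomes 13, 14, 15, 21 and 22. Of the 1591 RNase A peaks within 2 Mb of such a stretch, 25.6% (23.5 to 27.9%) were touched by an RNase H peak, against 7.42% (7.20 to 7.65%) of the 51751 peaks that lay neither there nor within 2 Mb of an outermost peak. After moving, these shares were 5.08% and 3.24%. Peaks beside a stretch can land inside it when moved, where no RNase H peak can touch them, and such positions were kept. The 5.08% can therefore be too low, and it is not a matched background for the peaks beside the stretches. RNase A peaks below 1 kb differed most, with 27.7% (24.1 to 31.6%) of 573 touched beside the stretches and 3.38% (3.10 to 3.68%) of 15119 elsewhere. Within 2 Mb of an outermost peak, 15.1% (14.1 to 16.1%) of 4744 RNase A peaks were touched, against 9.65% after moving. The share beside the stretch was highest on chromosome 21 (37 of 57 peaks, 64.9%), chromosome 11 (12 of 22, 54.5%) and chromosome 10 (74 of 146, 50.7%), while on chromosome 13 none of 22 was touched and on chromosome 17 it was 11 of 145 (7.59%). This division was chosen after the data were seen.

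In windows of 10 Mb with at least 50 RNase A peaks, the median touched share was 5.64% over 246 windows, and 186 windows lay under 10%. The 5 highest were chromosome 10 from 30 to 40 Mb (57 of 128, 44.5%), chromosome 9 from 60 to 70 Mb (25 of 63, 39.7%), chromosome 21 from 10 to 20 Mb (34 of 97, 35.1%), chromosome 16 from 30 to 40 Mb (70 of 240, 29.2%) and chromosome 1 from 120 to 130 Mb (19 of 71, 26.8%). In 7 windows no RNase A peak was touched, the largest being chromosome 14 from 50 to 60 Mb (0 of 131 peaks; 3 counts of 131, the limit that a count of 0 allows, is a share of 2.29%, and the exact 95% interval reaches 2.78%).

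Untouched RNase A peaks on autosomes lay a median of 79.7 kb from the nearest RNase H peak, and 11.6% had one within 10 kb. For moved RNase A peaks that met no RNase H peak, the median was 71.8 to 89.4 kb over the 8 shifts and 10.2 to 11.9% had one within 10 kb. The moved median depended on the shift, with 71.8 kb at a shift of 20 kb and 89.4 kb at 200 kb. A short shift changes such distances little, so this comparison cannot show whether untouched peaks lay at a background distance.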
